A study of Homo sapiens with 3 samples.

Results

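The genes examined here encode enzymes that place or remove methyl groups on lysine 36 of histone H3, and their own gene bodies were read for trimethylated lysine 36 (H3K36me3). They are 5 writers, SETD2, NSD1, WHSC1, WHSC1L1 and ASH1L, and 5 erasers, KDM2A, KDM2B, KDM4A, KDM4B and KDM4C. Members were chosen by their known function, and every peak overlapping their hg19 gene bodies, given to the nearest kb, was taken. The 10 gene bodies span 1708 kb. They held 316 of the 131798 nuclear peaks of LNCaP cells given DHT and 285 of the 117564 of untreated cells.

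LNCaP is an established androgen-responsive prostate cancer line. The libraries are H3K36me3 chromatin immunoprecipitations followed by sequencing, 1 from cells given 100 nM dihydrotestosterone (DHT, a potent androgen) for 4 h in red-free RPMI and 1 from cells labelled as without treatment. Cells were maintained in RPMI with 10% serum. Red-free medium is named only for the DHT cells, so hormone and medium cannot be told apart. The input library was not used here. With 1 library per condition no test across libraries could be made. Intervals below are 95% intervals that cover counting error only and treat neighbouring peaks as independent. Values are peak coverage, the share of a gene body lying under called peaks, not a level of the mark. Read depth is unknown. The cell type could not be checked against prostate marker genes because no hg19 annotation was at hand.

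H3K36me3 is laid down along transcribed genes behind elongating RNA polymerase II. SETD2 travels with the polymerase and is the main enzyme for the trimethyl state in mammals. NSD1, WHSC1 (now named NSD2), WHSC1L1 (now NSD3) and ASH1L add the mono- and dimethyl states. KDM2A and KDM2B remove those lower states and bind unmethylated CpG-rich DNA through a CXXC zinc finger. KDM4A, KDM4B and KDM4C remove tri- and dimethyl groups from lysine 36 and also from lysine 9. Several of these enzymes, KDM4B and KDM4C among them, are known as coactivators of the androgen receptor.

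All 10 gene bodies carried peaks in both libraries, but no peak lay in the first 2 kb of any of them. How often this holds for other genes was not counted. The bounds used were shorter than the RefSeq span in some genes. They gave 418 against 454.8 kb in KDM4C, 152 against 173.8 kb in KDM2B and 107 against 112.6 kb in WHSC1L1. Positions along a gene body rest on these bounds. The first peak lay 2.74 to 9.79 kb inside the 5′ end after DHT. In untreated cells it lay 2.996 to 9.75 kb inside in 9 genes and 54.6 kb inside in KDM4C. Promoters from RefSeq (250 bases before to 50 after a start, with GRCh38.p14 coordinates) were found for 9 of the 10 genes, with 17 start sites in all, some of whose windows overlap within a gene. Shown here are the promoters of the pair of erasers with the most coverage, and those of 2 starts that RefSeq places far inside KDM2A and KDM2B. Capitals mark CCAAT and GGGCGG on either strand, which can overlap each other.
KDM4A, chr1:43649899-43650198, plus strand: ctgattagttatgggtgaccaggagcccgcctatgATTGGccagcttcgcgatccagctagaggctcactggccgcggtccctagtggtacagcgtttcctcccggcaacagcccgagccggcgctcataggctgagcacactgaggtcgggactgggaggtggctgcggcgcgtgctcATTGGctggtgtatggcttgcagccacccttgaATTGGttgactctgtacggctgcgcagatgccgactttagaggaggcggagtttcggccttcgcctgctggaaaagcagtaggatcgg
KDM4B, chr19:4968863-4969162, plus strand: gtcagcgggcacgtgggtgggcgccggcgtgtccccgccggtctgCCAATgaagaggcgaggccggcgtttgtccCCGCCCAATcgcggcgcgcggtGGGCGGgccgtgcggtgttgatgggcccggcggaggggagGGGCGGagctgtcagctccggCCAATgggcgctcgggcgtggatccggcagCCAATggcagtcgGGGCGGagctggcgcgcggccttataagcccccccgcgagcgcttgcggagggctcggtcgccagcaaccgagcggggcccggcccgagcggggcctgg
KDM2A internal start, chr11:67239764-67240063, plus strand: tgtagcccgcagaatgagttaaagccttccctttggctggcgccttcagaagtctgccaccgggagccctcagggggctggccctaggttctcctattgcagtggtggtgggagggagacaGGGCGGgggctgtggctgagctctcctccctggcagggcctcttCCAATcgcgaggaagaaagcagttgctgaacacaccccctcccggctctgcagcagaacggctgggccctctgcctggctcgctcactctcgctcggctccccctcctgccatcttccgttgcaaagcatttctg
KDM2B internal start, chr12:121467329-121467628, minus strand: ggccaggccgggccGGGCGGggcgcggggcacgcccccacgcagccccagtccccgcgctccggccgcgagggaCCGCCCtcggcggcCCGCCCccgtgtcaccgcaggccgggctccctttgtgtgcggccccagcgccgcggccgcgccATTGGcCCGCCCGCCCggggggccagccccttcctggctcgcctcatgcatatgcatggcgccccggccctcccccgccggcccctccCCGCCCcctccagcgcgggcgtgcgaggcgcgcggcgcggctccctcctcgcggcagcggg

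The KDM4A promoter holds 3 CCAAT matches and no GGGCGG, with 21 CpG pairs. KDM4B's holds 4 of each, with 43 CpG pairs. The median over all promoters in the table is 14 CpG pairs. CCAAT was found in 8 of the 17 promoters and GGGCGG in 13, against 34.6% and 44.95% of all 35116 promoters in the table. The androgen receptor monomer site AGAACA, searched on both strands, was in none of the 17 and in 14.8% of all promoters. These are matches of letters in a 300-base window and say nothing about binding elsewhere. CCAAT and GGGCGG were chosen after the sequences were seen.

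The gene bodies were among the more covered parts of the genome. Median coverage over the 10 genes was 12.1% after DHT and 10.4% in untreated cells, and over 6494 windows of 150 kb with at least 2% covered in either library it was 4.95% and 5.00%. Those windows include sequence between genes, and differ in length from the genes, KDM4A being shorter than a window, so the difference is a description only. Of all 20606 windows of that length, 80.7% to 99.9% were less covered than each of the genes after DHT and 83.6% to 100.0% in untreated cells. KDM4C stood lowest of the 10 in both libraries.

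**Figure D1:**
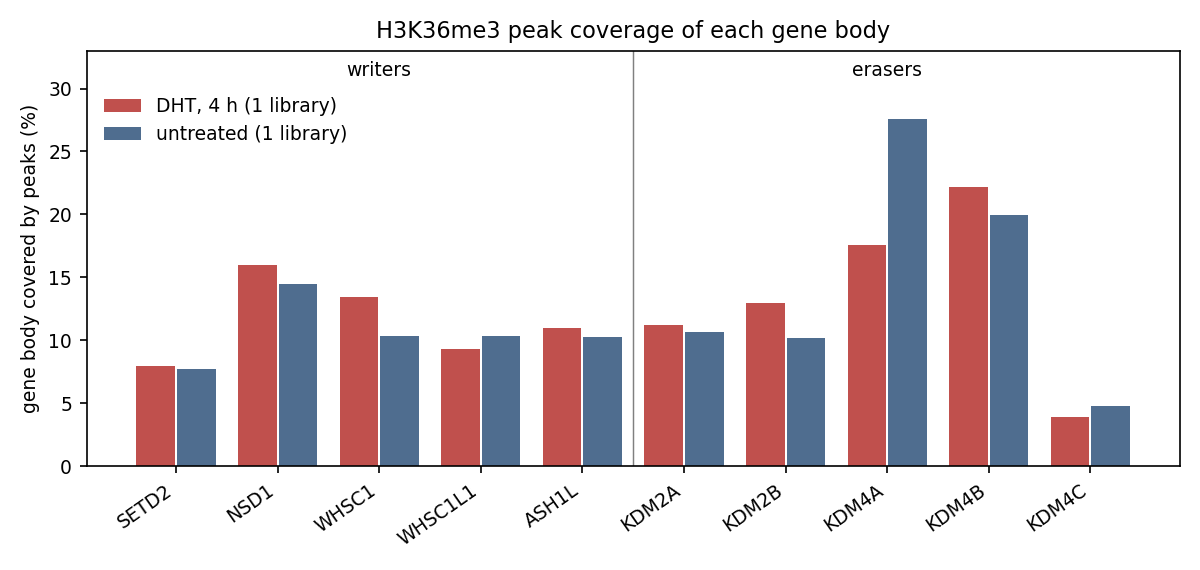
Share of each gene body covered by H3K36me3 peaks (%), DHT left and untreated right, 1 library each, writers then erasers. KDM4C is the least covered gene in both libraries, KDM4B the most covered after DHT (22.2%) and KDM4A the most covered in untreated cells (27.6%).

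SETD2 (hg19 chr3:47058001-47205000, minus strand), the trimethylating enzyme, had 31 peaks over 7.99% of its body after DHT and 28 peaks over 7.74% in untreated cells. Its ratio of covered length, always given as DHT over untreated, was 1.03 (0.569 to 1.88). In the higher-scoring 50% of each list it was 0.638 (0.290 to 1.40), on the lower side and past 1.5-fold. Its top-scoring peaks were at different sites. The DHT one lay at chr3:47165413-47165685 with a score of 719.7, and the untreated one at chr3:47098376-47099003 with a score of 880.1. Scores are the authors' own values for each peak and rank peaks only within a list. Each of these 2 sites was called in both libraries. The widest untreated peak, chr3:47058197-47059750 next to the 3′ end, had no DHT peak. The 50 kb beyond the 3′ end was 12.75% covered after DHT and held no untreated peak. RefSeq places NBEAL2 there.

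NSD1 (chr5:176560001-176727000, plus strand), a dimethylating enzyme whose loss causes Sotos overgrowth syndrome, was the most covered writer, with 45 peaks over 15.96% after DHT and 38 over 14.5% in untreated cells. The ratio was 1.10 (0.659 to 1.84), and the 1 Mb on each side of the gene had 1.125. The widest and top-scoring peak lay at the same place in both libraries, near the 3′ end. It was chr5:176720879-176722601 with a score of 822.4 after DHT and chr5:176720569-176722432 with a score of 546.8 in untreated cells. Of its peaks 55.6% after DHT (41.2% to 69.1%) and 63.2% in untreated cells (47.3% to 76.6%) were overlapped in the other library. Both intervals include the shares of the whole lists, 48.5% of DHT and 52.3% of untreated peaks.

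WHSC1 (chr4:1873001-1984000, plus strand), the dimethylating enzyme activated by the t(4;14) translocation of myeloma, had 24 peaks over 13.4% after DHT and 15 over 10.4% in untreated cells. This was the highest ratio of covered length of the 10 genes, 1.295 (0.633 to 2.65), and the highest ratio of peak number, 1.6 (0.806 to 3.28). Both intervals include 1. The surrounding region, near the end of the short arm of chromosome 4, had a ratio of 1.35, which is above the gene's own. Gene bodies were also split at their midpoint. The extra WHSC1 length lay on the 3′ side, 18.4% covered after DHT and 9.47% in untreated cells. In the last 10% of the gene coverage was 10.9% after DHT, and there was no untreated peak.

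WHSC1L1 (chr8:38133001-38240000, minus strand) was the only writer with less coverage after DHT, 9.35% under 27 peaks against 10.35% under 25 in untreated cells. Its ratio was 0.903 (0.493 to 1.65), while its surroundings had 1.135. Coverage leaned to the 3′ side in both libraries. That side held 68.4% of the covered length after DHT and 68.9% in untreated cells. RefSeq lists DDHD2 as overlapping WHSC1L1, and peaks in the overlap cannot be assigned to 1 of the 2 genes. ASH1L (chr1:155305001-155532000, minus strand), the longest writer gene, had 51 peaks over 10.95% after DHT and 47 over 10.3% in untreated cells, a ratio of 1.07 (0.681 to 1.67). Of its peaks 35.3% after DHT (23.6% to 49.01%) and 40.4% in untreated cells (27.6% to 54.7%) were at shared sites, and both intervals include the shares of the whole lists, 48.5% and 52.3%. Its top-scoring untreated peak, chr1:155408221-155408868 with a score of 283.4, had no DHT peak, although 96.9% of the untreated list scored lower.

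KDM2A (chr11:66887001-67026000, plus strand) had 27 peaks over 11.25% after DHT and 26 over 10.7% in untreated cells, a ratio of 1.055 (0.551 to 2.02). Its widest and top-scoring peak was at 1 site in both libraries, chr11:67021281-67023236 after DHT and chr11:67021379-67023777 in untreated cells, 134.3 and 134.4 kb from the 5′ end. RefSeq's internal KDM2A start, whose promoter is printed above, lies 120.8 kb beyond the first on GRCh38.p14. On hg19 no untreated peak lay from 112.4 to 125.5 kb and no DHT peak from 112.4 to 123.8 kb. These distances come from different builds and were not converted.

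KDM2B (chr12:121867001-122019000, minus strand) had 28 peaks over 13.0% after DHT and 19 over 10.2% in untreated cells. Its ratio was 1.27 (0.615 to 2.63), beside 1.13 in the region. Of its untreated peaks 14 of 19 were overlapped by a DHT peak (73.7%, 51.2% to 88.2%). Of its DHT peaks 14 of 28 were overlapped by an untreated one (50%, 32.6% to 67.4%). Both intervals include the shares of the whole lists, 52.3% of untreated and 48.5% of DHT peaks. The widest peak was again at a common site far inside the gene, chr12:121878066-121880116 after DHT and chr12:121877237-121880137 in untreated cells. It lies 138.9 kb from the 5′ end in both libraries. The internal KDM2B start is 113.6 kb beyond the first on GRCh38.p14, by the same unconverted measure. The gene overlaps RNF34 in RefSeq, which cannot be told apart from it at the 3′ end.

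KDM4A (chr1:44116001-44171000, plus strand), a demethylase of the trimethyl state and the shortest gene of the set at 55 kb, was the only gene past 1.5-fold. It was 17.55% covered after DHT under 15 peaks and 27.6% in untreated cells under 14 peaks. The ratio was 0.636 (0.267 to 1.515), and its interval includes 1. Among the 150 kb windows of the genome 9.93% were at least 1.5-fold lower after DHT and 11.1% at least 1.5-fold higher. One gene lower and none higher of 10 is thus near the background in both directions. Shorter windows passed the fold more often, with 12.6% lower at 100 kb and 15.2% lower at 75 kb. KDM4A is shorter than any of these windows. The surroundings of KDM4A had a ratio of 0.939.

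The KDM4A difference lay on its 5′ side. That side was 14.2% covered after DHT and 34.75% in untreated cells, while the 3′ side had 20.9% and 20.4%. From the 5′ end to 8.66 kb no DHT peak was called, and untreated cells had peaks there from 3 kb on. The widest untreated peak, chr1:44133025-44135800, was 2776 bp wide with a score of 69.3, which 36.3% of the untreated list scored below. A DHT peak covered 322 bp of it, or 11.6%. In the higher-scoring 50% of each list the ratio turned to 1.24, higher after DHT. At the 3′ end both libraries had their top-scoring KDM4A peak at the same place, with scores of 161.8 after DHT and 137.4 in untreated cells. RefSeq lists an antisense RNA, KDM4A-AS1, overlapping the gene, and peaks carry no strand.

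KDM4B (chr19:4969001-5154000, plus strand), a demethylase of the same family, had the widest peaks of the set. It was 22.2% covered under 21 peaks after DHT and 19.97% under 18 peaks in untreated cells, a ratio of 1.11 (0.529 to 2.34) beside 1.315 in its surroundings on the short arm of chromosome 19. Median peak width was 1473 bp after DHT and 1738.5 bp in untreated cells, against 354 and 374 bp over the whole lists. Of the peaks at least 2 kb wide over all 10 genes, KDM4B held 7 of 8 after DHT and 9 of 15 in untreated cells.

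Within KDM4B the more covered side differed between the libraries. The 5′ side was 23.96% covered after DHT and 11.8% in untreated cells, a ratio of 2.03 (0.751 to 5.48). The 3′ side was 20.4% covered after DHT and 28.1% in untreated cells, a ratio of 0.726 (0.255 to 2.07). Between 20% and 30% of the way along, coverage was 40.5% after DHT and 6.37% in untreated cells. No DHT peak was called from 156.8 to 185.0 kb, where untreated cells had a peak 3702 bp wide, chr19:5136710-5140411, with a score of 76.4. The widest DHT peak was chr19:5039318-5043850, 4533 bp with a score of 58.8, and the widest untreated one chr19:5077957-5084026, 6070 bp with a score of 65.5. Both had low ranks, with 16.3% of the DHT list and 30.96% of the untreated list scoring lower. KDM4B's top-scoring untreated peak, chr19:5033060-5035367 with a score of 212.9, had no DHT peak.

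KDM4C (chr9:6758001-7176000, plus strand), the longest gene at 418 kb, had 47 peaks over 3.95% after DHT and 55 over 4.82% in untreated cells. It was the only gene with fewer peaks after DHT, and its ratio was 0.819 (0.520 to 1.29) beside 1.025 in the region. The first untreated peak came 54.6 kb from the 5′ end and the first DHT peak 5.83 kb from it. The DHT peaks before that point scored between 54.9 and 73.3, below their list's median of 85.7. After DHT no peak was called from 143.5 to 227.7 kb, the longest such stretch in any of the genes. Untreated peaks in that stretch scored between 50.3 and 123.3, on both sides of their list's median of 81.2. The strongest site of KDM4C was common to both libraries. It was chr9:6834221-6835653 with a score of 921.2 after DHT and chr9:6834063-6835712 with a score of 494.9 in untreated cells. In the DHT list 99.9% of peaks scored lower than it, and in the untreated list 99.55%.

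**Figure D2:**
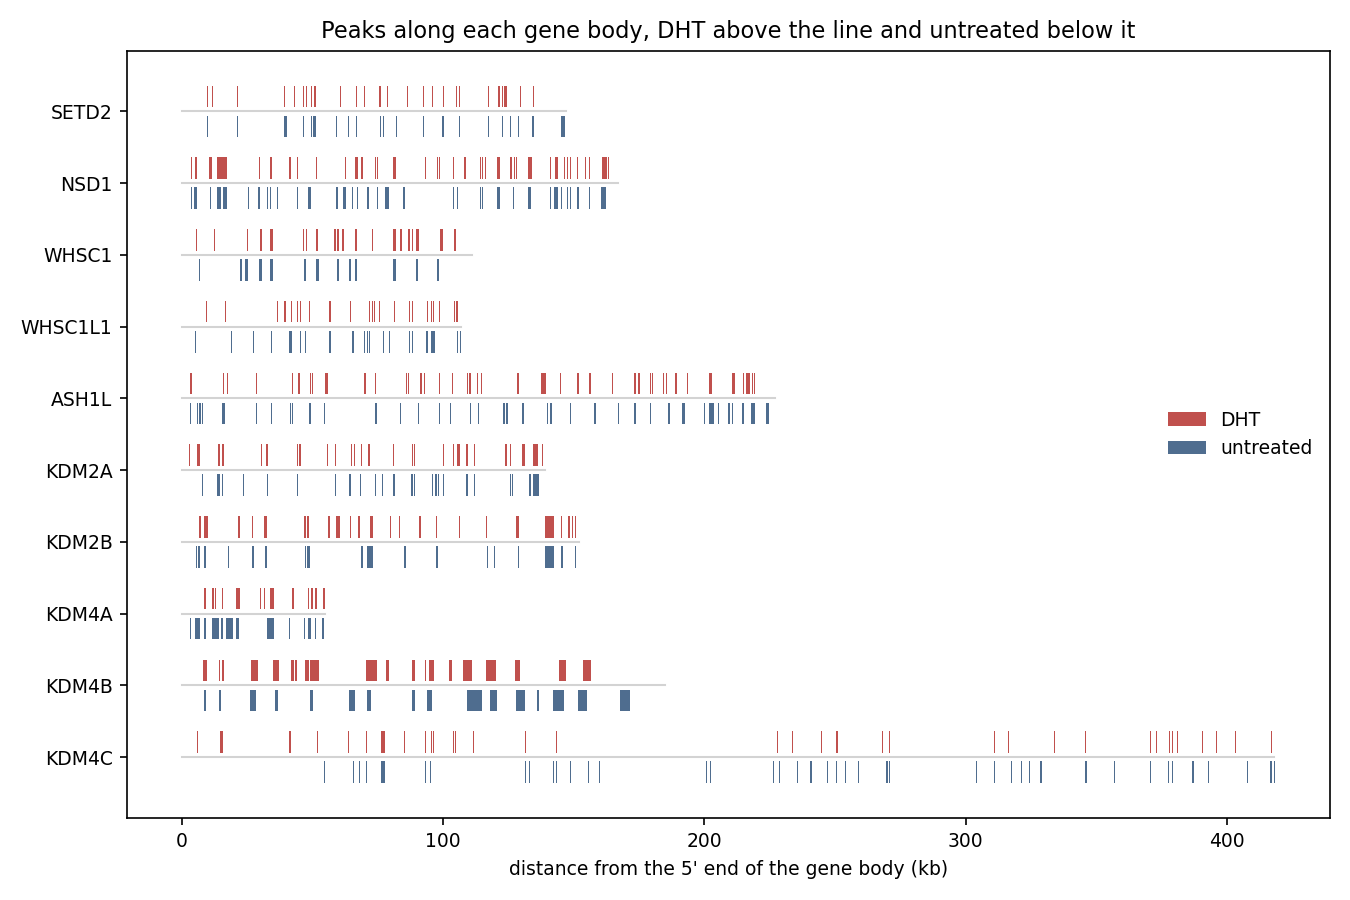
Peaks along each gene body, drawn to scale in kb from the 5′ end, with DHT peaks above each grey line and untreated peaks below it. The first 2 kb of each gene are free of peaks, KDM4B carries the widest peaks, and KDM4C has long stretches without peaks, from 143.5 to 227.7 kb after DHT and up to 54.6 kb in untreated cells.

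Over the 10 genes together 190.8 kb were covered after DHT and 184.1 kb in untreated cells, a ratio of 1.04 (0.829 to 1.295). Peak number had a ratio of 1.11 (0.942 to 1.31), with more peaks after DHT in 9 genes and fewer in KDM4C. The whole lists differed as much, with a ratio of peak number of 1.12. Coverage was higher after DHT in 7 genes and lower in WHSC1L1, KDM4A and KDM4C, and 48.2% of the windows of 150 kb with coverage were higher. The interval included 1 in all 10. The median ratio was 1.06, against 0.986 over the windows of 150 kb with coverage. Writers as a group were 11.6% covered after DHT and 10.7% in untreated cells, a ratio of 1.08 (0.840 to 1.39). Erasers had 10.8% in both, a ratio of 0.9999 (0.705 to 1.42), and without KDM4A the other 9 genes had a ratio of 1.07 (0.852 to 1.35). A difference between writers and erasers was not tested.

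**Figure D3:**
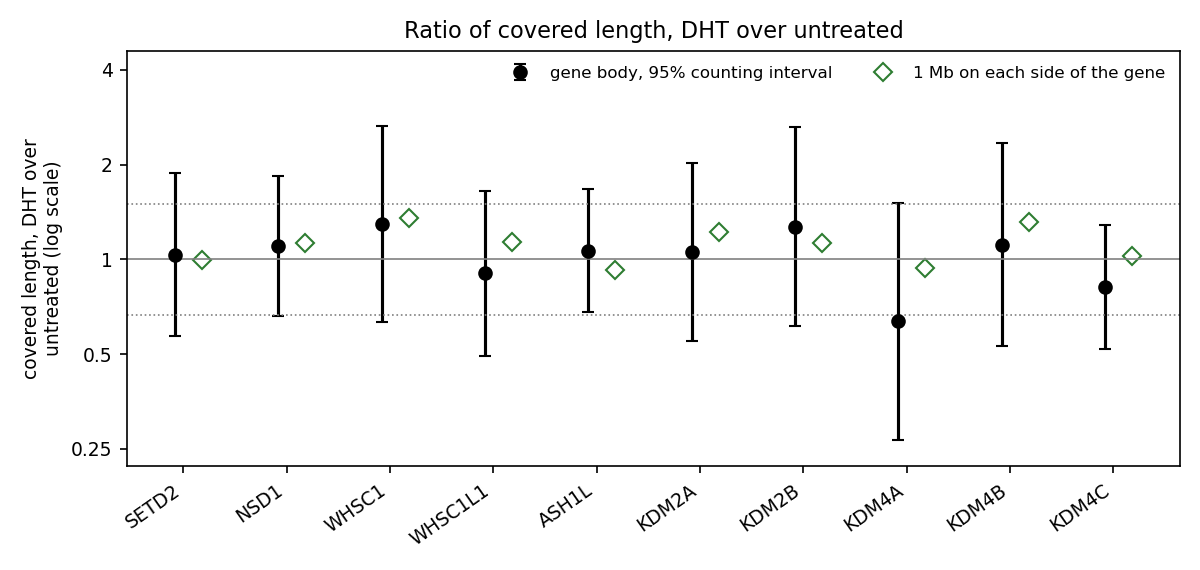
Covered length after DHT divided by that in untreated cells, on a log scale, for each gene body (black, bars are 95% counting intervals) and for the 1 Mb on each side (green diamonds), with dotted lines at 1.5-fold. All 10 intervals include 1, and KDM4A at 0.636 is the only gene past a dotted line.

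Averaged over the 10 genes, the first 10% of the gene body was 9.18% covered after DHT and 9.37% in untreated cells, and the last 10% was 17.7% and 17.8% covered. These close means hold single genes that differed in opposite directions. In the last 10%, KDM4A was 40.95% covered after DHT and 21.05% in untreated cells, and SETD2 2.46% and 15.2%. KDM4B had no DHT peak there and 20.01% coverage in untreated cells. For single stretches of 10%, in these genes as in WHSC1 above, no interval or background share was computed. The 3′ side held 54.1% of the covered length after DHT and 57.4% in untreated cells. It was the more covered side in 8 genes after DHT and in 6 in untreated cells. Covered length of the 3′ side over that of the 5′ side was 1.18 (0.870 to 1.595) after DHT. In untreated cells it was 1.35 (0.976 to 1.86), and both intervals include 1. The balance of sides in other genes was not computed. Of the 20 sides, the KDM4B 5′ side and the WHSC1 3′ side (ratio 1.94, 0.716 to 5.26) were at least 1.5-fold higher after DHT and the KDM4A 5′ side lower (0.408, 0.115 to 1.45). Among windows of 75 kb, 16.2% were that much higher and 15.2% that much lower, so 2 and 1 of 20 are no more than the background. The intervals of these 3 sides all include 1. The KDM4A side was no longer past 1.5-fold in the higher-scoring 50% of each list (0.769) or with peaks joined at 5 kb (0.712).

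**Figure D4:**
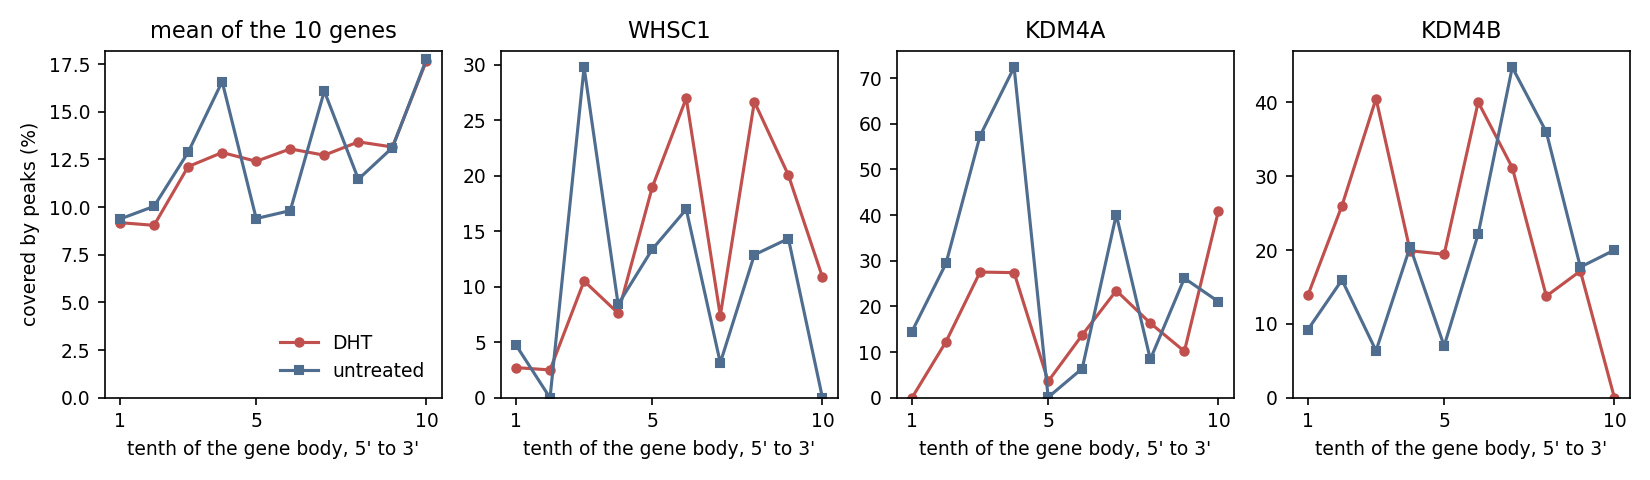
Share covered by peaks (%) in each 10% of the gene body from 5′ to 3′, as the mean of the 10 genes and for the 3 genes with a side past 1.5-fold, DHT in red and untreated in blue, each panel on its own scale. The means are 17.7% and 17.8% in the last 10%, where KDM4A is more covered after DHT and KDM4B less.

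The share of the set's peaks found in both libraries was close to that of the whole lists. Of its DHT peaks 48.4% (42.96% to 53.9%) were overlapped by an untreated peak, beside 48.5% of that whole list, and of its untreated peaks 53.0% (47.2% to 58.7%), beside 52.3%. By length, 45.3% of DHT-covered and 46.96% of untreated-covered sequence in the set was shared, beside 48.5% and 49.7% in all. Higher-scoring peaks were more often shared, as in the lists at large. Of the set's peaks in the top 25% of their list by score, 51 of 62 (82.3%) were shared after DHT and 52 of 71 (73.2%) in untreated cells, beside 81.05% and 76.96% of that 25% of the whole lists. In the bottom 25% it was 32 of 98 (32.65%) after DHT and 28 of 66 (42.4%) in untreated cells, beside 26.5% and 34.85%. The top-scoring peak of each gene was overlapped in the other library in 10 of 10 genes after DHT and in 8 of 10 in untreated cells, all but ASH1L and KDM4B. It lay at the same site in 5 genes, NSD1, KDM2A, KDM2B, KDM4A and KDM4C. Shares for the top-scoring peaks of other genes were not computed. These counts therefore have no background beside them and are not read as a result about the genes named.

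Gene length and coverage had no steady relation. Across the 10 genes, Spearman's rho between length and coverage was -0.22 after DHT and -0.42 in untreated cells, and without KDM4A and KDM4C it was 0.36 and 0.14. The genes share their libraries, so these are descriptions of 10 points.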

How the data were processed

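H3K36me3 ChIP-seq of LNCaP cells was analysed, 1 library after DHT and 1 untreated. The authors deposited a list of peaks per library giving each peak a score. MACS made the lists, per the deposited peak names, on hg19, per the deposited file names. The MACS version and settings, its control, the aligner and the read depth are not stated in these sources. The scale of the deposited score, 50 to 3100, is not stated.

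Peaks on mitochondrial DNA, 3 after DHT and 4 untreated, were left out. Covered length, with peaks clipped to each gene body, was computed with NumPy 2.4.6 and pandas 2.3.3 under Python 3.11.15, and functions were tested on simulated peaks. A gene body was called at 1.5-fold with at least 2% covered in either library, and set against windows of 150 kb. Ratio intervals take the sum of squared widths as a Poisson variance, peak number ratios exact binomial and shares Wilson intervals. Overlap needed 1 bp. Strands were read from RefSeq's promoter table, except for WHSC1L1, where the minus strand is textbook knowledge. Gene bodies were chosen, and all 10 named, with earlier results of these data known. The DHT over untreated ratios of single 5′ and 3′ sides were added after seeing the data. Other genes of the pathway could not be placed on hg19 and were not analysed here.

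Alternatives were the higher-scoring 50% of each list, equal covered length, joining at 1 kb and 5 kb, other folds, a stricter overlap, gene bounds moved by 5 kb and windows of 100 kb.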

Additional observations from a re-analysis of the deposited data

How the results depend on the processing

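No paired analysis was possible because each condition has 1 library. The ratio over the 10 gene bodies and the balance of 3′ and 5′ sides stayed within their counting intervals under every list and bounds setting run. Genes higher after DHT, 0 at 1.5-fold, became 1 with peaks joined at 1 kb (WHSC1), 3 joined at 5 kb (WHSC1, KDM2A, KDM2B) and 2 when a 25% difference sufficed. Genes lower, 1, became 0 joined at 5 kb and at 2-fold, and in the higher-scoring 50% the 1 gene was SETD2 (0.638), not KDM4A. Shares of windows past the fold were not computed under these settings. The altered counts of genes therefore have no background beside them and are not read as a result about the genes named. The median ratio per gene became 1.33 joined at 5 kb. DHT peaks overlapped became 55.8% joined at 1 kb and 74.55% at 5 kb. Untreated peaks overlapped became 75.4% joined at 5 kb, 42.9% in the higher-scoring 50% and 45.96% when 50% of the peak had to be covered. The cause of these moves was not tested, except that joining, the overlap rule and the score cut alter the peaks counted by construction. The score cut also drops lower-scoring partner peaks from the other list. KDM4A's ratio reversed to 1.24 in the higher-scoring 50% and was 0.584 to 0.879 under the other settings. All 60 ratios of single genes, these included, lay within the wide counting intervals of the reported values, and 7 of the 60 lay on the other side of 1, SETD2's and KDM4A's among them. The KDM4A 5′ side had 0.769 in the higher-scoring 50% and 0.712 joined at 5 kb, and the KDM4B 5′ side 1.62 in the higher-scoring 50%. In windows of 100 kb, 14.3% were at least 1.5-fold higher and 12.6% lower. Depth is unknown, so a stretch without peaks may be one where none could be called.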
